A study of Canis lupus familiaris with 6 samples.

Results

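The nuclear pore proteins described here are 34 genes for nucleoporins and for the Ran cycle and carrier proteins that move cargo through the pore. They were chosen by name. Each was read from the probe sets whose only gene symbol in the array annotation was that gene, and the brightest probe set, that with the highest mean over all lines, stood for the gene. 32 of the 34 genes had such a probe set, among 15115 genes with one in the whole table, and 31 of them passed a filter on dim probe sets and entered the test among 9145 genes. NDC1 and RAN had no probe set under this rule and were not analysed here. NUP210 lay below the filter and is given apart.

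Expression was measured on 1 Affymetrix canine array for each of 6 primary cell lines from osteosarcoma, a malignant bone tumour of dogs, grown alike as cultures with 10% serum. UWKOS1, UWKOS3 and UWKOS7 formed tumours when placed in mice and form the tumorigenic group (n = 3), while UWKOS2, UWKOS6 and UWKOS8 formed none and form the non-tumorigenic group (n = 3). No line carried a named allele or agent, no normal reference cells were included, and the RNA came from the cultures before any transplantation. Each group is thus 3 lines with 1 array each, and the p-values rest on the spread among the lines alone.

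The nuclear pore is a large ring of proteins that spans both membranes of the nuclear envelope. The Y complex builds its outer rings, the inner ring holds the centre together, and nucleoporins with phenylalanine-glycine repeats fill the channel. Carriers of the importin and exportin families take cargo through that channel, and the small GTPase Ran sets the direction: RCC1 charges Ran with GTP in the nucleus, and RANGAP1 with its partners triggers hydrolysis at the cytoplasmic face. In dividing cells the pores are taken apart at mitosis, rebuilt at its end and doubled in number during interphase.

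Values are deposited log2 values, and differences are tumorigenic minus non-tumorigenic on that scale. Values are listed for UWKOS1, UWKOS3 and UWKOS7 in that order, then for UWKOS2, UWKOS6 and UWKOS8. A gene is said to have risen only where limma's adjusted p, taken over all 9145 genes, fell below 0.05. A level on 1 probe set cannot be set against that of another, so genes are compared by their differences only.

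Array medians ranged from 6.03 to 6.05. Of 8 bone-lineage markers with a probe set, 5 passed the filter, and 0 of these passed limma's test. Their differences were -0.55 for COL1A1, -0.93 for COL1A2, -0.88 for SPARC, -0.44 for BGLAP and 0.22 for RUNX2, and the groups did not overlap for COL1A2 and SPARC, which were lower in the tumorigenic lines. COL1A1 and COL1A2 averaged 12.69 and 13.60 in the tumorigenic and 13.24 and 14.52 in the other lines. ALPL, SPP1 and IBSP lay below the filter on their means, although SPP1 measured 9.76 in UWKOS1. The mean level of 8 macrophage and osteoclast markers was 5.80 to 6.33 in the tumorigenic and 6.68 to 6.79 in the other lines. Of these, CTSK measured 8.06, 11.77 and 10.70 in UWKOS1, UWKOS3 and UWKOS7 against 13.37, 13.39 and 13.05 in the others, without overlap, and CD68 differed by -1.07, but neither passed. The difference of CTSK, -3.10, was the largest of the set. CD14 differed by 0.04 and ACP5 by -0.18, the latter without overlap, and neither passed. PTPRC (5.05 and 5.04 in the group means), CSF1R (5.49 and 5.63), AIF1 (4.86 and 4.71) and CD163 (4.79 and 5.05) lay below the filter. The mean of 4 epithelial markers, all below the filter on their means, was 4.07 to 6.41 against 3.93 to 4.13. In single lines KRT8 reached 6.49 in UWKOS1 and 6.64 in UWKOS3, and EPCAM 7.65 and KRT18 7.44 in UWKOS1. CDH1 measured 3.95 to 4.26 over all lines and differed by -0.12 in a fit without the filter. Of 5 endothelial markers 2 passed the filter and 0 passed the limma test: KDR differed by 1.11, without overlap, and CDH5 by -0.04. In a fit without the filter PECAM1 differed by 0.84 (limma adjusted p = 0.0412), VWF by 0.05 and TEK by -0.25. Of 5 skeletal muscle markers 2 passed the filter: ACTA1 fell, by 3.70, and DES differed by 0.40 without passing limma's test. MYOD1, MYOG and MYH2 lay below the filter and differed by 0.04, -0.16 and -0.16 in the fit without it. The part of other cell types in the results below was not tested. The log2 difference between the 3' and 5' GAPDH control probe sets, a measure of RNA integrity and labelling, was 0.86 to 1.07 in the tumorigenic lines, 0.95 in UWKOS2, 1.21 in UWKOS6 and 1.98 in UWKOS8 (two-sided exact permutation p = 0.2, with 0.1 the smallest possible).

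Genes of the pore and its transport factors were mostly higher in the tumorigenic lines. Of the 31 tested, 8 rose, 0 fell and 23 did not pass limma's test. The genes that rose were NUP160, NUP50, NUP37, NUP35, RAE1, NUP62, CSE1L and RANGAP1, by 0.87 to 1.80, or 1.83-fold to 3.48-fold. Among all genes tested, 7.5% rose and 4.63% fell. The median difference was 0.82 over the 31 tested genes and 0.81 over the 32 with a probe set, against 0.03 over all genes tested and -0.03 over all genes with a probe set. The difference was above 0 for 30 of the 32, the exceptions being TPR and NUP210, whereas it was above 0 for 52.6% of all genes tested. At an unadjusted p under 0.05, 20 of the 31 were higher and 0 were lower, beside 19.4% and 12.6% of all genes tested. The 20 include NUP155 and NUP214, whose non-tumorigenic values all lay under the filter value. These 2 genes entered the test through the tumorigenic lines.

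For 23 of the 31 genes every tumorigenic line lay above every non-tumorigenic line, and for 0 every tumorigenic line lay below. Over all genes tested these shares were 21.7% and 16.6%. NUP155 and NUP214, which entered the test through the tumorigenic lines, are among the 23. The adjusted p of 4 genes lay just past the threshold: it was 0.0502 for NUP214, 0.0510 for RCC1, and 0.0526 for both NUP85 and KPNB1. Just inside it lay CSE1L, at 0.0493. Without UWKOS3 or without UWKOS6, 0 of the 31 passed limma's test when 2.06% and 0.0547% of all genes rose. At an unadjusted p under 0.05, 17 and 15 were then higher, beside 16.5% and 13.2% of all genes. With UWKOS6 and UWKOS8 both left out, since they had the largest GAPDH differences, 0 passed limma's test, the median was 0.80, and 0.0109% of all genes rose. At an unadjusted p under 0.05, 14 were higher in that fit, beside 7.16% of all genes. That fit keeps 1 non-tumorigenic line, UWKOS2, and takes its spread from the tumorigenic group.

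**Figure D1:**
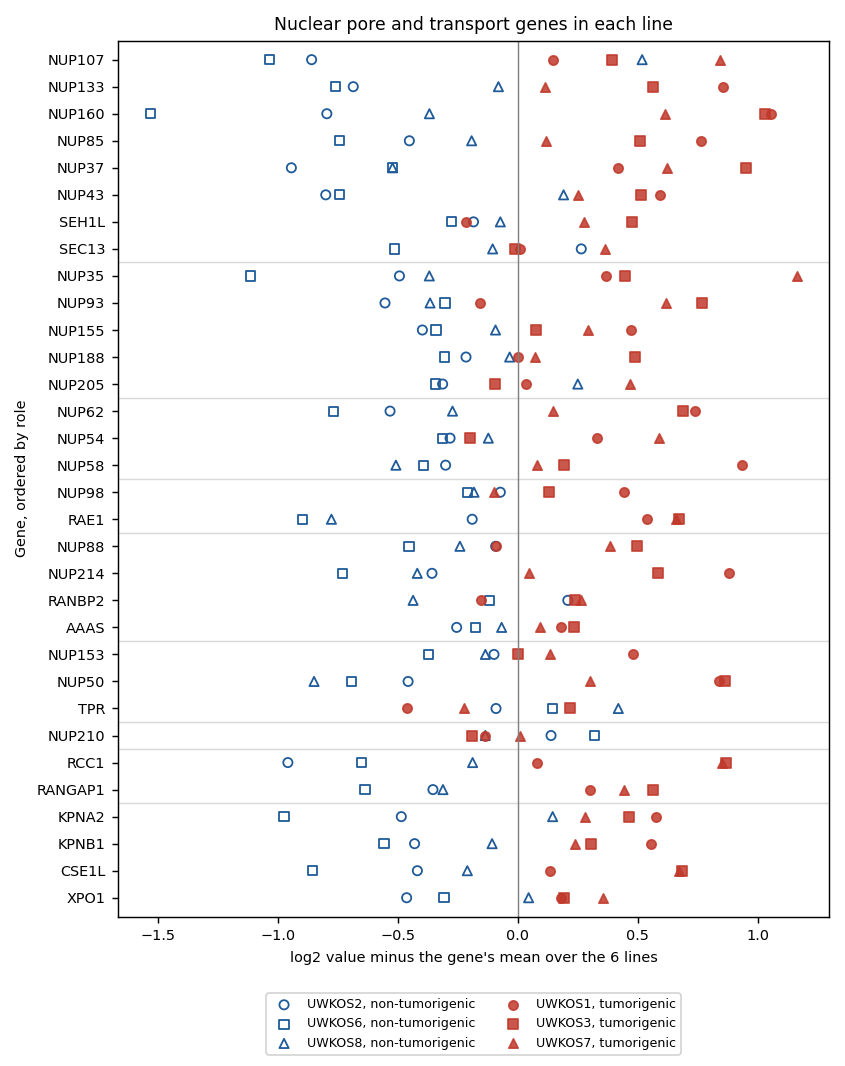
Values of the 32 genes with a probe set in each line, as the log2 value minus the gene's own mean over the 6 lines, on the x axis. Genes stand on the y axis, ordered by role, with red filled symbols for the 3 tumorigenic and blue open symbols for the 3 non-tumorigenic lines. Red symbols lie to the right of all blue ones for 23 genes, and UWKOS8 is often the blue symbol nearest to them.

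The Y complex, the 8-protein scaffold of the outer rings, held the largest difference. NUP160 measured 8.44, 8.42 and 8.0 in the tumorigenic lines and 6.59, 5.85 and 7.02 in the others. The 3 tumorigenic lines were close together, and the lowest of them stood 0.98 above UWKOS8, the highest of the others. NUP160 rose by 1.80 (SE 0.32, limma adjusted p = 0.0242), from 6.49 ± 0.59 to 8.29 ± 0.25 (SD, n = 3 each). NUP37, a small subunit that binds NUP160, measured 11.39, 11.93 and 11.60 against 10.03, 10.45 and 10.45. Again the groups were apart, by 0.94, and the spread within each was small. NUP37 rose by 1.33 (SE 0.21, limma adjusted p = 0.0204), from 10.31 ± 0.24 to 11.64 ± 0.27 (SD, n = 3 each). With each line left out in turn the adjusted p of NUP160 ran from 0.0311 to 0.0771, and NUP160 passed only without UWKOS7 or UWKOS8. That of NUP37 ran from 0.0312 to 0.0842, and it did not pass without UWKOS3 (0.0503), UWKOS6 (0.0842) or UWKOS8 (0.0527).

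The other 6 genes assigned to the Y complex did not pass. NUP133, at the far end of the stem, measured 9.16, 8.87 and 8.42 against 7.62, 7.54 and 8.22, a difference of 1.02 (limma adjusted p = 0.0606, and 0.0423 without UWKOS7). NUP85, of the short arm, measured 10.30, 10.05 and 9.65 against 9.08, 8.79 and 9.34, a difference of 0.93. NUP43, which sits on NUP85, measured 11.64, 11.55 and 11.29 against 10.24, 10.30 and 11.23, a difference of 0.90. In all 3 genes the groups did not overlap, and UWKOS8 was the non-tumorigenic line closest to the tumorigenic ones. NUP107, the stem partner of NUP133, differed by 0.92, but its groups overlapped because UWKOS8, at 10.43, lay above UWKOS1 and UWKOS3. SEH1L and SEC13, both of which also serve in complexes outside the pore, differed by 0.36 and 0.24, with overlapping groups.

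The inner ring joins the scaffold to the membrane and the channel. NUP35, which binds the membrane, measured 11.25, 11.33 and 12.05 against 10.39, 9.77 and 10.51. UWKOS7 was the highest line and UWKOS6 the lowest, and the groups were 0.74 apart. NUP35 rose by 1.32 (SE 0.30, limma adjusted p = 0.0414), from 10.22 ± 0.40 to 11.54 ± 0.44 (SD, n = 3 each). Its call was lost with any 1 line left out, with adjusted p between 0.0552 and 0.135 and differences between 1.07 and 1.47.

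The large inner ring scaffold proteins differed by less and did not pass. NUP93, a linker to the channel, measured 9.71, 10.64 and 10.49 against 9.32, 9.57 and 9.51, a difference of 0.82. NUP155, which also binds the membrane, measured 6.60, 6.20 and 6.42 against 5.73, 5.78 and 6.03, a difference of 0.56. Its non-tumorigenic values, with a mean of 5.85, all lay under the filter value of 6.07. NUP155 thus entered the test through the tumorigenic lines, and the size of its difference is uncertain. NUP188 measured 8.57, 9.06 and 8.64 against 8.36, 8.27 and 8.54, so that only 0.03 separated UWKOS1 from UWKOS8. The groups of these 3 genes did not overlap, while those of NUP205, a large relative of NUP188, did, with a difference of 0.27 and a 95% interval from -0.31 to 0.86.

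The central channel is lined by a trimer of NUP62, NUP54 and NUP58, whose repeats make the barrier that carriers cross. NUP62 measured 7.48, 7.43 and 6.89 against 6.21, 5.97 and 6.47. UWKOS7 was the lowest tumorigenic line and still lay 0.42 above UWKOS8. NUP62 rose by 1.05 (SE 0.23, limma adjusted p = 0.0376), from 6.22 ± 0.25 to 7.27 ± 0.33 (SD, n = 3 each). With a line left out its adjusted p ran from 0.0250 to 0.138, and it passed only without UWKOS7. NUP58 measured 7.78, 7.03 and 6.92 against 6.54, 6.45 and 6.33, a difference of 0.80 that did not pass (limma adjusted p = 0.0863), although its groups did not overlap. NUP54 differed by 0.48 and overlapped, since UWKOS3, at 9.57, lay below UWKOS8, at 9.65.

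NUP98, a channel protein of both faces of the pore, and its partner RAE1, which serves mRNA export and the mitotic spindle, differed unequally. RAE1 measured 11.02, 11.15 and 11.14 against 10.29, 9.58 and 9.71. Its tumorigenic lines had an SD of 0.07, the non-tumorigenic lines one of 0.38, with UWKOS2 nearest to the tumorigenic lines. RAE1 rose by 1.25 (SE 0.22, limma adjusted p = 0.0240), from a mean of 9.86 to 11.11. With a line left out its adjusted p ran from 0.0322 to 0.0978, and it passed only without UWKOS7 or UWKOS2. NUP98 differed by 0.31, with a 95% interval from -0.13 to 0.76, and its groups overlapped.

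On the cytoplasmic side 0 of 4 genes passed limma's test, and NUP214 and NUP88 had an unadjusted p under 0.05. NUP214, a docking site for export complexes, measured 7.17, 6.87 and 6.33 against 5.93, 5.56 and 5.87. All 3 non-tumorigenic values lay under the filter value, so NUP214 entered the test through the tumorigenic lines. The size of its difference, 1.01 (limma adjusted p = 0.0502), is uncertain, and its nearness to the threshold depends on that entry. NUP88, the partner of NUP214, measured 8.55, 9.13 and 9.02 against 8.54, 8.18 and 8.39, a difference of 0.53, with UWKOS1 and UWKOS2 nearly equal. AAAS, a WD-repeat protein held at the pore by NDC1, measured 9.08, 9.13 and 8.99 against 8.64, 8.72 and 8.83, a difference of 0.33 with an SE of 0.14. The groups of these 3 genes did not overlap. Those of RANBP2, the filament protein that binds Ran and holds RANGAP1 at the pore, did, with a difference of 0.23 and a 95% interval from -0.31 to 0.77.

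The nuclear basket, which reaches into the nucleus, held both the second largest difference and the lowest. NUP50, which speeds the release of importins from their cargo, measured 9.58, 9.61 and 9.04 against 8.29, 8.05 and 7.89. The groups stood 0.76 apart, and UWKOS8 was the lowest line, unlike in the Y complex. NUP50 rose by 1.34 (SE 0.22, limma adjusted p = 0.0208), from 8.08 ± 0.20 to 9.41 ± 0.32 (SD, n = 3 each). With a line left out its adjusted p ran from 0.0179 to 0.0895, and it did not pass without UWKOS3, UWKOS6 or UWKOS8. NUP153, an anchor of the basket, measured 10.62, 10.14 and 10.28 against 10.04, 9.77 and 10.01, a difference of 0.41 that did not pass. TPR, the filament of the basket, measured 9.68, 10.36 and 9.92 against 10.05, 10.29 and 10.56. UWKOS8 was its highest line and UWKOS1 its lowest, and the difference was -0.31 with a 95% interval from -0.88 to 0.25 (limma adjusted p = 0.403).

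NUP210, a glycoprotein of the pore membrane, had 5 probe sets, all below the filter. Its brightest measured 5.56, 5.50 and 5.70 against 5.83, 6.01 and 5.56. The groups overlapped, and the difference in the fit without the filter was -0.21 (limma adjusted p = 0.455). Whether it was expressed above background in either group is not known from these values.

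**Figure D2:**
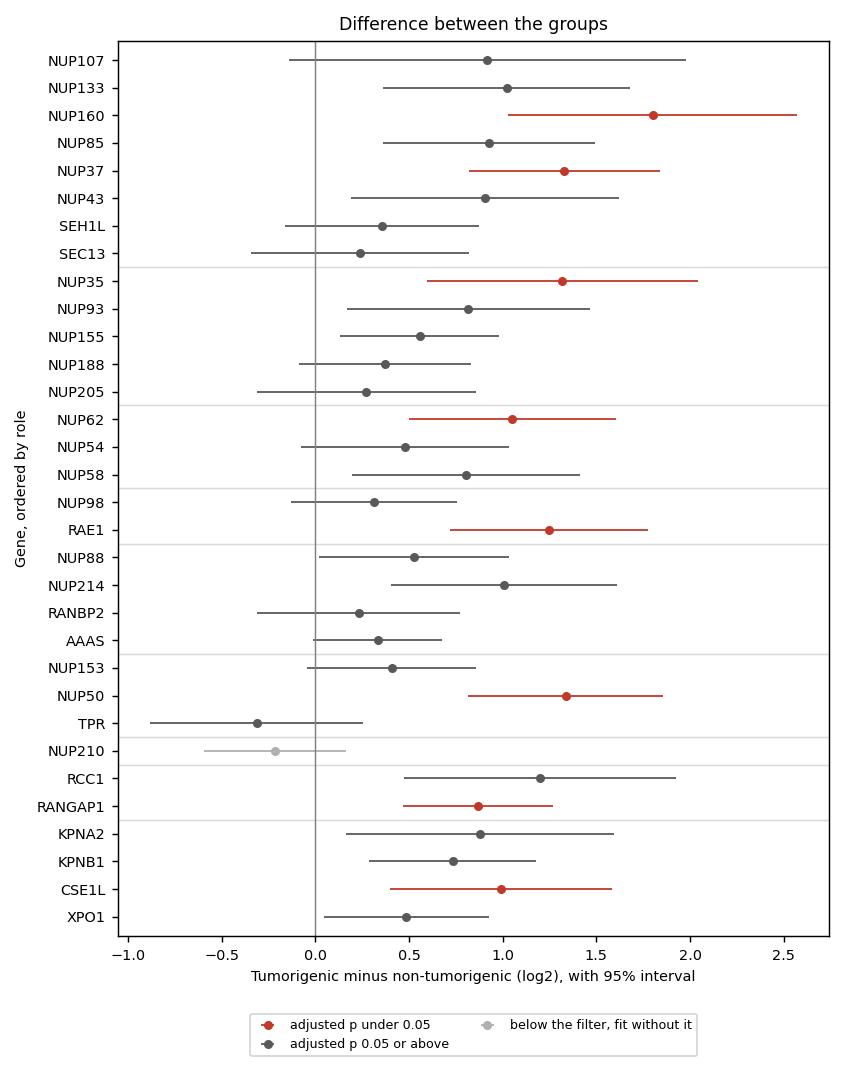
Difference between the groups for each of the 32 genes with a probe set, on the x axis as tumorigenic minus non-tumorigenic log2 value, with 95% intervals from limma as bars. Red marks the 8 genes that passed, dark grey the 23 that did not and light grey NUP210, which lay below the filter; the point of TPR is the lowest, at -0.31, and that of NUP160 the highest, at 1.80.

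RANGAP1 and RCC1, the regulators of Ran among the members with a probe set, had groups that did not overlap. RANGAP1, the GTPase activator, measured 8.92, 9.19 and 9.07 against 8.27, 7.99 and 8.31. The lowest tumorigenic line lay 0.61 above the highest non-tumorigenic one. RANGAP1 rose by 0.87 (SE 0.17, limma adjusted p = 0.0286), from 8.19 ± 0.18 to 9.06 ± 0.13 (SD, n = 3 each). With a line left out its adjusted p ran from 0.0436 to 0.115, and it passed only without UWKOS1 or UWKOS7. RCC1, the nucleotide exchange factor on chromatin, measured 8.46, 9.24 and 9.23 against 7.42, 7.73 and 8.19. UWKOS1 was the lowest tumorigenic line, and the difference of 1.20 (SE 0.30) did not pass (limma adjusted p = 0.0510).

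All 4 carriers had non-overlapping groups, and CSE1L passed. CSE1L, the exportin that returns importin alpha to the cytoplasm, measured 11.52, 12.07 and 12.05 against 10.96, 10.53 and 11.17. UWKOS1 was the lowest tumorigenic line, 0.34 above UWKOS8. CSE1L rose by 0.99 (SE 0.25, limma adjusted p = 0.0493), from 10.89 ± 0.33 to 11.88 ± 0.31 (SD, n = 3 each). The call was lost with any 1 line left out, at adjusted p between 0.0505 and 0.160, and, as for NUP35, without the filter on dim probe sets. Unlike that of NUP35, it was also lost with quantile or 75th percentile scaling, robust eBayes or the fit over all probe sets. CSE1L passed in 5 of 19 alternatives and NUP35 in 9. KPNB1, importin beta, measured 12.72, 12.47 and 12.40 against 11.73, 11.61 and 12.06, a difference of 0.73 (limma adjusted p = 0.0526). KPNA2, an importin alpha that is abundant in dividing cells, measured 13.16, 13.04 and 12.86 against 12.09, 11.60 and 12.72, a difference of 0.88 (limma adjusted p = 0.0994). XPO1, the main exportin of proteins, measured 11.90, 11.91 and 12.07 against 11.25, 11.41 and 11.76, a difference of 0.49 (limma adjusted p = 0.127). In these 3 genes UWKOS8 again lay nearest to the tumorigenic lines.

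The 32 genes had 87 probe sets, of which 63 passed the filter. In a fit over all 21462 probe sets past the filter, 23 of the 63 rose and 0 fell, while 7.28% of all probe sets rose and 4.74% fell. The difference was above 0 on 57 of the 63. A gene with several probe sets has more chances to pass, and probe sets of a gene share its RNA. Of the 19 genes with at least 2 such probe sets, 16 had only positive differences, and the exceptions were NUP93, RANGAP1 and TPR.

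For 8 genes another probe set rose where the brightest did not pass. They were NUP43, NUP54, NUP88, NUP93, SEH1L, RCC1, XPO1 and KPNA2. The dimmer probe set of SEH1L measured 8.44, 9.07 and 8.15 against 6.98, 6.80 and 6.98, a difference of 1.63 (limma adjusted p = 0.0210), while the brightest differed by 0.36. For KPNA2 the differences were 0.88, 0.47 and 1.99 from the brightest probe set to the dimmest, and the last passed (limma adjusted p = 0.0387). That dimmest set measured 7.45 in UWKOS6 and 9.02 in UWKOS2, whereas the middle one was highest in UWKOS8, at 12.14. The dimmer probe set of XPO1 differed by 1.13 (limma adjusted p = 0.0245), and those of NUP54 by 0.99 and 1.11, each with groups that did not overlap.

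Some probe sets went the other way or stayed near 0. NUP133 differed by 1.02 on its brightest probe set and by 0.13 on the other, on which UWKOS8 measured 8.54 and UWKOS3 7.42. Of the 5 probe sets of RANGAP1 past the filter, 3 rose, by 0.87, 1.19 and 1.72, and the others differed by -0.03 and -0.30. For TPR, 4 probe sets gave differences of -0.31, -0.01, -0.03 and 0.11, and none passed (limma adjusted p between 0.408 and 0.982). NUP35, NUP37 and RAE1 rose on both of their probe sets, by 1.25 to 1.72. CSE1L rose on 2 of its 3, by 0.92 and 1.61, while its brightest gave an adjusted p of 0.0503 in this fit. Of the brightest probe sets of the 31 tested genes, 13, and 2 of the 8 that passed, those of RAE1 and CSE1L, carry a name that marks probes shared between transcripts.

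**Figure D3:**
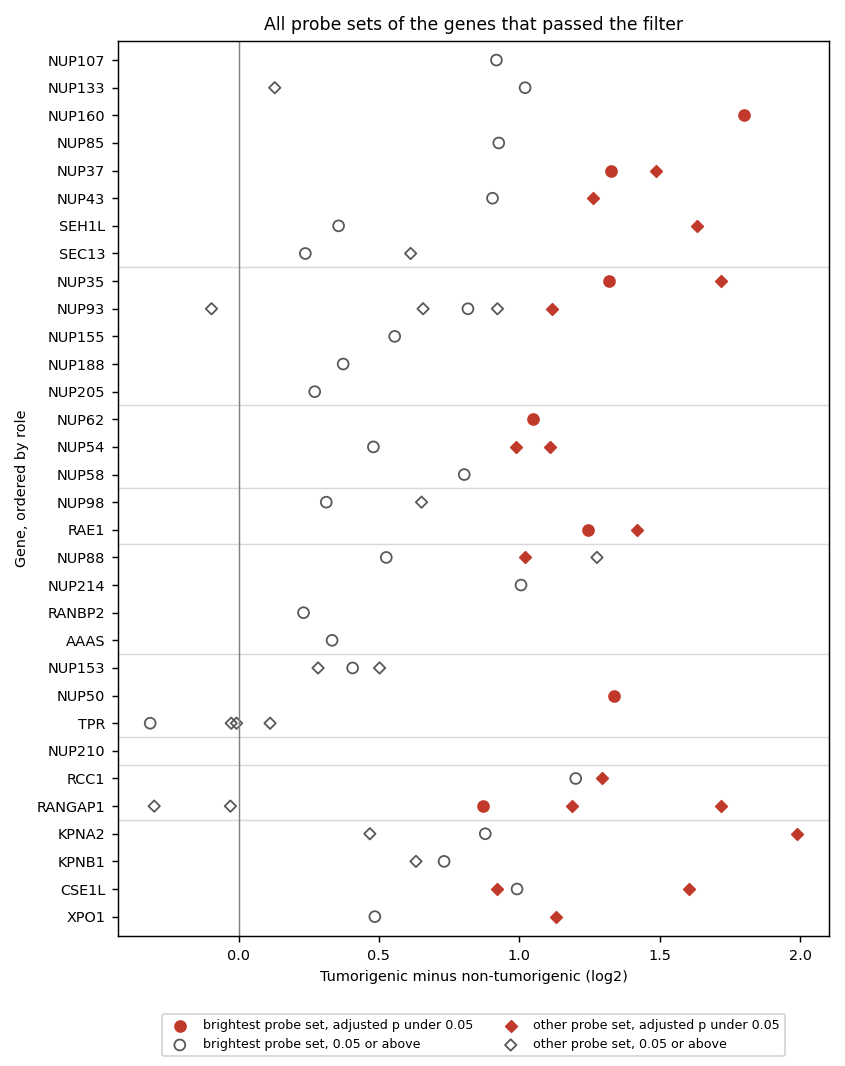
Difference of every probe set past the filter, 63 in all, on the x axis as tumorigenic minus non-tumorigenic log2 value, with the genes on the y axis. Circles are the brightest and diamonds the other probe sets, and red filled symbols passed in the fit over all probe sets; 23 are red, all to the right of 0, and NUP210 has no symbol because its probe sets lay below the filter.

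The lines differed within their groups too. Taking each gene's deviation from its mean over the 6 lines, the median over the 31 tested genes was 0.37 in UWKOS1, 0.48 in UWKOS3 and 0.29 in UWKOS7, and -0.40 in UWKOS2, -0.52 in UWKOS6 and -0.18 in UWKOS8. Over all genes tested the same medians lay between -0.03 and 0.03. UWKOS6 was the lowest of all lines for 20 of the 31 genes and UWKOS8 for 3, while 19.3% and 15.6% of all genes tested were lowest in these lines. Within the non-tumorigenic group UWKOS8 was highest for 21 genes, UWKOS2 for 9 and UWKOS6 for 1. Within the tumorigenic group no line held such a share: UWKOS1 and UWKOS3 were highest for 12 genes each and UWKOS7 for 7. These ranks within a group were not counted over all genes tested, so whether they are particular to the pore genes is not known.

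Proliferation markers were mostly higher in the tumorigenic lines as well. Of 13 measured, MCM2, MCM3 and MCM5 of the replicative helicase and the mitotic kinase AURKA rose. None fell and 9 did not pass, while 7.5% of all genes tested rose and 4.63% fell. The difference was above 0 for all 13, beside 52.6% of all genes, and its median was 1.34. Every tumorigenic line lay above every non-tumorigenic line for 8 of the 13, beside 21.7% of all genes. The median deviation of the 13 was 0.78, 0.76 and 0.56 in the tumorigenic lines, and -0.73, -1.30 and 0.11 in the others. As for the pore genes, UWKOS6 was the lowest line and UWKOS8 the highest non-tumorigenic one. The part of proliferation in the differences of the pore genes was not tested. On the transcript-end measures the groups overlapped, as UWKOS2 lay below UWKOS7. The GAPDH difference was largest in UWKOS8, and that of the actin control pair was 2.86 in UWKOS6, 2.07 in UWKOS8 and 0.64 to 1.11 in the other lines. With the GAPDH difference as a covariate in limma, the median over the 31 genes was 0.91 and 0 of them passed, when 0.0437% of all genes rose. At an unadjusted p under 0.05, 19 of them were higher, beside 12.5% of all genes.

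**Figure D4:**
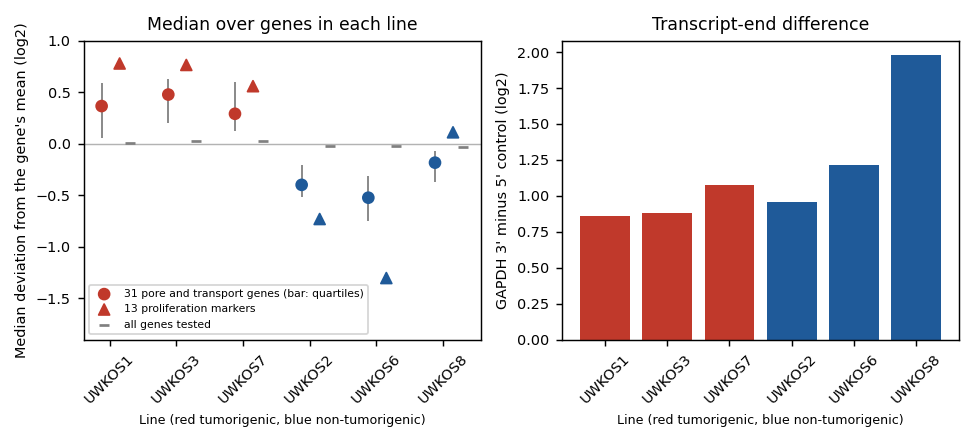
Left, the median deviation in each line (log2 value minus the gene's mean over the 6 lines) for the 31 pore and transport genes (circles, bars for the quartiles), the 13 proliferation markers (triangles) and all genes tested (grey dashes); right, the log2 difference of the 3' and 5' GAPDH control probe sets. Red is tumorigenic and blue non-tumorigenic: UWKOS8 has the median nearest to 0 in its group, at -0.18, and the largest GAPDH difference, at 1.98.

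Other genes of nuclear transport were counted from a separate list of 41. Of these 39 had a probe set and 36 were tested, and 7 rose, 0 fell and 29 did not pass, beside the 7.5% and 4.63% of all genes. The median difference was 0.38. NXT2, a partner of the mRNA export receptor, measured 7.49, 6.79 and 7.66 against 5.55, 5.01 and 5.05 and rose by 2.11 (limma adjusted p = 0.0160). Its non-tumorigenic values all lay under the filter value, so it entered the test through the tumorigenic lines, and the size of its rise is uncertain. Its relative NXT1 rose by 0.83, GLE1, which helps release mRNA at the cytoplasmic face, by 1.15, and ENY2, a subunit of the TREX-2 export complex and of chromatin complexes, by 1.5. Other genes of the list that act in mRNA export did not pass: NXF1, the export receptor itself, differed by 0.25, DDX19A by 0.41, DDX19B by 0.35, MCM3AP by 0.38 and PCID2 by 0.05.

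RANBP1, which assists RANGAP1 in the hydrolysis of GTP by Ran, measured 12.52, 12.76 and 12.21 against 11.08, 10.99 and 11.24. The groups were far apart, and RANBP1 rose by 1.39 (SE 0.19, limma adjusted p = 0.0162). XPO5, the exportin of microRNA precursors, rose by 0.86. POM121C, a membrane nucleoporin, measured 5.63 to 5.98 in the non-tumorigenic lines, under the filter value. It too entered the test through the tumorigenic lines, and the size of its rise, 0.80, is uncertain. Carriers outside the 34 genes mostly did not pass: KPNA1, KPNA3 and KPNA4, other importin alphas, differed by 0.28, -0.32 and 0.42, and the importin IPO7 by 1.19 (limma adjusted p = 0.153). The Ran-binding proteins RANGRF and RANBP3 differed by -0.79 (SE 0.81) and 0.43, with overlapping groups. RANGRF was low in UWKOS7 alone: it measured 9.97, 9.60 and 6.79 against 9.47, 9.79 and 9.47. Without UWKOS6, 0 of the 36 passed, when 0.0547% of all genes rose. Without UWKOS1, UWKOS3, UWKOS2 or UWKOS8, 2 or 3 did, when 3.75%, 2.06%, 3.18% and 2.55% of all genes rose. Of the 7, RANBP1 and NXT2 passed with any 1 line other than UWKOS6 left out. For NXT2 and POM121C the call itself depends on their having entered the test through the tumorigenic lines.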

How the data were processed

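RNA of 6 canine osteosarcoma lines was hybridised to Affymetrix arrays from 10 µg of total RNA taken at 70 to 80% confluency, per the labels' protocols. The deposited values were already on a log2 scale, judged from their range. The submitters' processing notes name MAS5 alone, without its version, and how the arrays were normalized is not given in the sources used here. The arrays had nearly equal quartiles (4.55 to 4.65 and 8.04 to 8.19) and lowest values of 1.97 to 2.14, so the summary method and scaling behind the values are not settled. Values were used as deposited, with no offset, no detection calls and 0 columns left out.

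Of 43035 probe sets 111 were controls. Symbols came from the platform annotation, which can be old, updated through gene identifiers to RefSeq (assembly UU_Cfam_GSD_1.0) for 27680 of 29254 probe sets with 1 symbol. A further 2 probe sets named KPNA2 among several genes and were left out. Probe sets with a mean below 6.07, the median, were left out, and the brightest probe set stood for each of 9145 genes. The group difference was fitted per gene by lmFit and eBayes of limma 3.58.1 under R 4.3.3, without covariates; p-values were adjusted over all genes by Benjamini-Hochberg and called below 0.05. The fit was tested on simulated data.

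The members and lists were chosen with earlier results of these data known, so no list was tested as a whole. All members are named; line values are given for those that passed or whose groups did not overlap. From the list of other transport genes those that passed were named; the genes of that list named without passing, and the probe sets described singly, were chosen after their values were seen. Alternatives covered filters, scaling, eBayes options, probe set choice, each line left out, UWKOS6 and UWKOS8 left out, and the GAPDH difference as a covariate. Centring on the hybridization controls and the mean difference of 3 control pairs as a covariate were added after seeing the data. Figures used matplotlib 3.10.9.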

Additional observations from a re-analysis of the deposited data

How the results depend on the processing

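The direction held for 29 of the 31 tested genes in every alternative that tested them. SEC13 and RANBP2, neither of which passed, turned to -0.15 and -0.092 without both UWKOS6 and UWKOS8, and to -0.052 and -0.033 with the mean transcript-end difference of 3 control pairs as a covariate. The count of members that rose, 8, was 6 to 11 (4.13 to 10.1% of all genes rose, against 7.5%) with the other filters, quantile or 75th percentile scaling, the eBayes options, array weights or the fit over all probe sets. It was 15 where probe sets of a gene were averaged and 15 with centring on the hybridization controls, when 8.94% and 12% of all genes rose. That centring moved the median of all genes tested to 0.20 and the members' median to 0.99. The count was 0 without both UWKOS6 and UWKOS8, 0 with the GAPDH difference as a covariate and 0 with the mean of 3 pairs, when 1, 10 and 3 of 9145 genes passed in all; 14, 19 and 15 members were then higher at an unadjusted limma p under 0.05, beside 7.16%, 12.5% and 8.73% of all genes. With each line left out in turn it ran from 0 to 9, while the share of all genes that rose ran from 0.0547%, without UWKOS6, to 9%, without UWKOS7, and the members' median from 0.64, without UWKOS6, to 0.86. The count of members that fell was 0 in every alternative. The count of other transport genes, 7, was 3 with the upper-quartile filter, 0 without both UWKOS6 and UWKOS8, 0 with either covariate, and 0 to 6 with each line left out. Why these counts moved was not tested. Some of the fits held fewer lines or genes. Offsets before a log, though planned, were not run because the values were already log2. No paired analysis was possible because the labels pair no tumorigenic line with a non-tumorigenic one. With 6 arrays, precision is limited by their number.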
